A study of Homo sapiens with 6 samples.

Results

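The genes described here encode 10 transcription factors of the basic leucine zipper class, chosen by name: the FOS family members FOS, FOSL1 and FOSL2, the JUN family members JUN, JUNB and JUND, the related factor ATF3, and the small MAF factors MAFF, MAFG and MAFK. All 10 were found among the 15496 gene symbols of the deposited table, and all 10 passed the filter on low values. They were measured by sequencing of polyadenylated RNA in HEK293 cells, an established human embryonic kidney line, exposed to the quinolinol compound B23 and in controls that received DMSO, its solvent. There were 3 libraries per group, and neither the dose nor the duration of treatment is given in the sources used here. The design names triplicates without saying whether they were separate cultures, so p-values reflect no more than library-to-library spread, which could be technical. Because CPM (reads adjusted for library size) are relative to the sequenced RNA, more RNA per cell and more cells in a given state cannot be told apart.

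AP-1 is a pair of leucine zipper proteins bound to DNA. JUN proteins pair with each other or with FOS or ATF proteins, FOS proteins need a JUN partner, and the pairs bind the AP-1 site or the closely related cyclic AMP response element (CRE). Many of these genes are transcribed within minutes of growth factor or stress signals, and their RNA is short-lived. Small MAF proteins have a DNA-binding zipper but no activation domain: they act with CNC partners such as NRF2 at antioxidant response elements, or as pairs of their own that repress.

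Of the 10 genes, 9 were higher and 1 was lower in B23-treated cells, and for every one of them the 3 B23 values lay entirely to one side of the 3 DMSO values. Of all 14792 tested genes 88.6% were called, 39.6% as higher and 49% as lower (limma, Benjamini-Hochberg adjusted p under 0.05), and values did not overlap upwards in 39.8% and downwards in 49.1%. A rise of at least 4-fold in mean CPM was called for 6 of the 10 genes, against 1.56% of all tested genes, and a rise of at least 2-fold for 8 of the 10, against 10.3%. The median difference on the log2(CPM + 0.5) scale was 2.10 over the 10 genes and -0.10 over all tested genes. As the 10 genes were chosen with earlier results of these data known, these comparisons describe them and test nothing. JUN was the only one of the 10 that was lower, and MAFF had the largest rise.

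**Figure D1:**
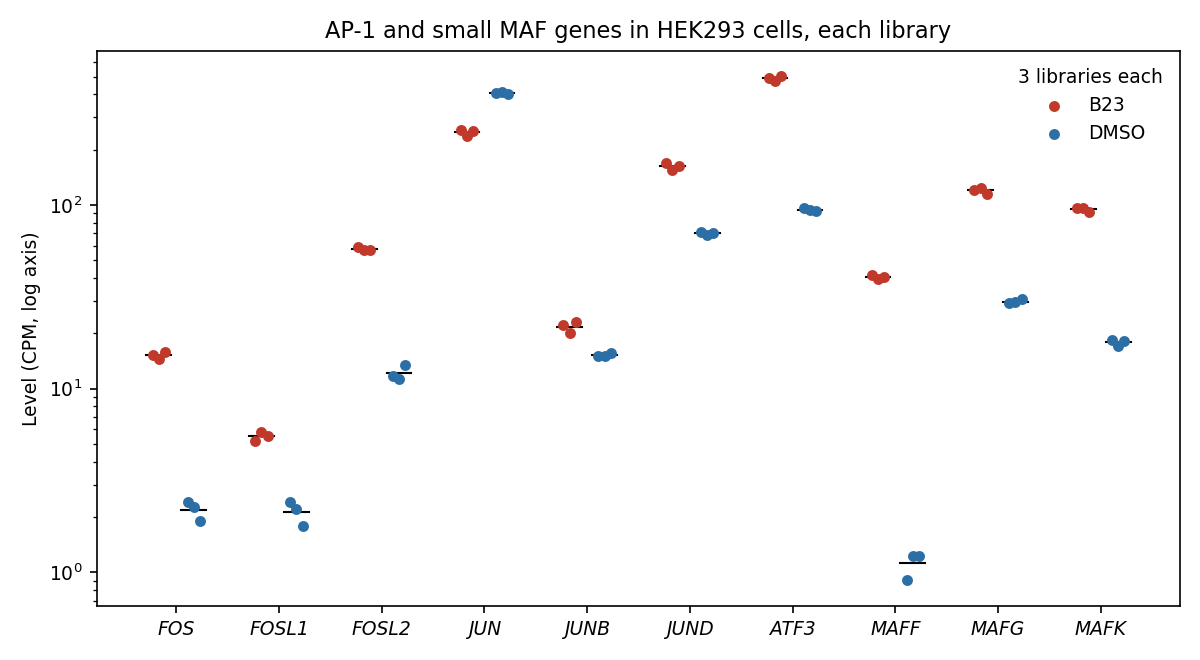
Level of each of the 10 genes in CPM on a log axis, with 3 B23 libraries in red left of 3 DMSO libraries in blue and a black line at each mean. The B23 points lie above the DMSO points for every gene except JUN, and the widest gap is that of MAFF, at 40.6 CPM in B23 and 1.12 CPM in DMSO on average.

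**Figure D2:**
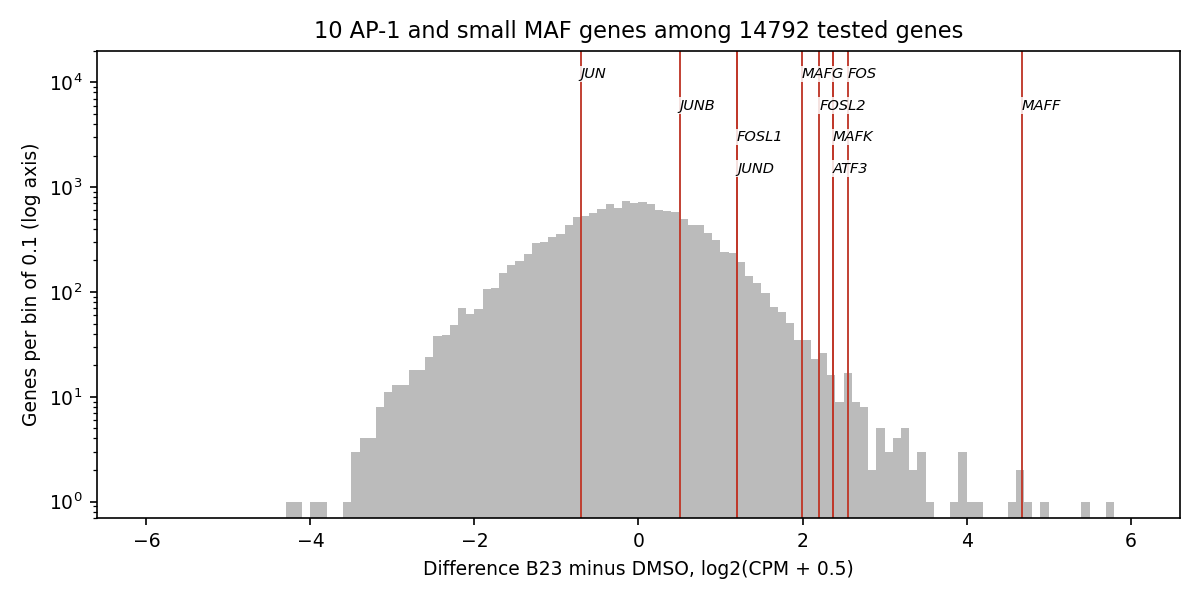
Histogram of the difference B23 minus DMSO on the log2(CPM + 0.5) scale over the 14792 tested genes, in bins of 0.1 on a log axis, with a red line at each of the 10 genes. MAFF stands at 4.67 near the right end, the next 5 genes lie between 1.99 and 2.55, and JUN at -0.70 is left of the bulk's centre.

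JUN family proteins can bind DNA without a FOS partner. JUN itself, on chromosome 1 from 58780788 to 58784327 in GRCh38, was at 255.5, 238.2 and 253.2 CPM in B23-treated cells, against 404.6, 412.1 and 399.5 CPM in DMSO cells. All 3 B23 values were below all 3 DMSO values, with 10955 to 12986 reads per B23 library and 25063 to 25553 per DMSO library. Mean CPM was 1.63-fold lower in B23, a log2 difference of -0.70 (SE 0.035, limma adjusted p = 2.45e-15), and 24.5% of tested genes had a larger fall. The range was -1.21 to -0.59 over 18 other settings, and JUN was called lower in each of them.

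JUND, which encodes a JUN protein often described as restraining growth, lies on chromosome 19 from 18279760 to 18281622. Its level was 168.2, 155.3 and 163.1 CPM in B23-treated cells and 71.2, 68.9 and 70.3 CPM in DMSO cells. The groups were well apart, 2.31-fold higher in B23 by mean CPM and 1.20 on the log2 scale (SE 0.036, limma adjusted p = 6.42e-20). JUNB, a JUN protein with weaker activation of its own, was at 22.2, 20.1 and 22.9 CPM in B23-treated cells against 15.0, 15.0 and 15.6 CPM in DMSO cells. This was the smallest of the 9 rises, 1.43-fold, with a log2 difference of 0.50 (SE 0.053, limma adjusted p = 4.74e-09) and a range of 0.25 to 0.73 over the 18 settings. JUNB, on chromosome 19 from 12791496 to 12793315, shares 259 exon bases with HOOK2 on the opposite strand, which was at 14.3 ± 0.446 CPM in B23 and 15.2 ± 0.360 CPM in DMSO (SD, n = 3), so part of the reads assigned to JUNB is uncertain.

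Genes were classed by their annotated transcript with the most exons. By that count JUND has 2 exons in GENCODE release 29, though its annotated exons together cover 1863 bases, the whole gene from 18279760 to 18281622. Its place among genes with more than 1 exon rests on this way of counting. JUN and JUNB are genes with 1 exon. Coding genes of that kind were mostly lower in B23: of 207 tested, 84.5% were called lower and 10.6% higher, with a median log2 difference of -1.21, whereas the 12985 coding genes with more than 1 exon had a median of -0.065. The fall of JUN was smaller than the median of that class and JUNB rose against it. Whether exon number has a part in either value was not tested.

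Levels of different genes were compared after division by length, as CPM per kb of annotated exon. In B23-treated cells JUN made up 41.3%, 41.6% and 41.7% of the JUN family, against 71.1%, 72.0% and 70.9% in DMSO cells. JUND held 51.7%, 51.6% and 51.0% of it in B23-treated cells and 23.8%, 22.9% and 23.7% in DMSO cells, so that per length JUND was the leading member in every B23 library and JUN in every DMSO library. In CPM without division by length, JUN stood above JUND in every library of both groups. The share of JUNB was 7.05% ± 0.271 in B23 and 5.20% ± 0.151 in DMSO (SD, n = 3). Each of these shifts had p = 0.1 in a two-sided exact permutation test, the smallest p that 3 libraries against 3 can give. A share within a library does not change when all its values are multiplied by 1 factor; quantile normalization is not of that kind, and shares were not computed under it. The sum over the JUN family was 169.3 ± 6.81 CPM per kb in B23 and 160.5 ± 1.26 CPM per kb in DMSO (SD, n = 3), 1.05-fold higher in B23 with the CPM as deposited. It was 1.14-fold and 1.11-fold higher in B23 with median-of-ratios and TMM scaling. With listed-gene total scaling and quantile normalization it was 1.13-fold and 1.26-fold lower in B23.

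**Figure D3:**
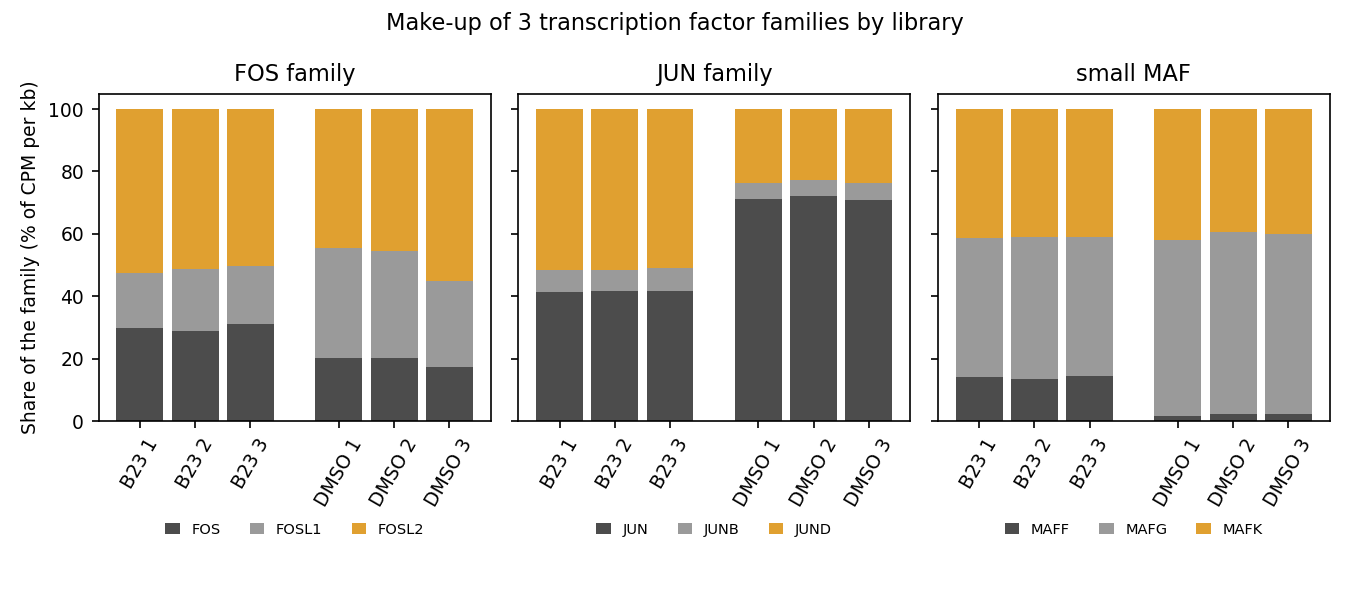
Stacked bars of each family's make-up in percent of CPM per kb, with 3 B23 libraries left of 3 DMSO libraries in each panel. JUND outweighs JUN in the B23 bars of the JUN family, and MAFF, the dark segment of the small MAF panel, is 14.1% of the bar in B23 and 2.01% in DMSO on average.

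FOS family proteins cannot pair with themselves and depend on JUN proteins to bind DNA. FOS, the first AP-1 gene to respond in many cell types, was at 15.2, 14.5 and 15.8 CPM in B23-treated cells, against 2.41, 2.25 and 1.89 CPM in DMSO cells. That was 667 to 790 reads per B23 library and 119 to 152 per DMSO library. The B23 values were all above the DMSO values, 6.96-fold by mean CPM and 2.55 on the log2 scale (SE 0.078, limma adjusted p = 1.43e-19), and 64 tested genes had a larger rise. FOS lies on chromosome 14 from 75278774 to 75282230.

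FOSL2, which encodes FRA2, a FOS protein without the strong activation domain of FOS, stood at 58.9, 56.7 and 56.6 CPM in B23-treated cells and at 11.7, 11.2 and 13.4 CPM in DMSO cells. All B23 libraries were higher, 4.74-fold by mean CPM, and the log2 difference was 2.20 (SE 0.053, limma adjusted p = 4.70e-21). FOSL1, which encodes FRA1 and is itself a known AP-1 target, was low in both groups, with 5.20, 5.83 and 5.54 CPM in B23-treated cells against 2.42, 2.22 and 1.78 CPM in DMSO cells. It was higher in every B23 library, 2.58-fold, with a log2 difference of 1.20 (SE 0.093, limma adjusted p = 1.33e-11) on 264 to 276 reads per B23 library and 112 to 153 per DMSO library. FOSL2 lies on chromosome 2 from 28392448 to 28417312 and FOSL1 on chromosome 11 from 65892049 to 65900573.

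FOS, FOSL1 and FOSL2 together, without FOSB, summed to 15.6 ± 0.129 CPM per kb in B23 and 3.50 ± 0.145 CPM per kb in DMSO (SD, n = 3), 4.47-fold higher in B23. Within it the share of FOS was 29.97%, 28.9% and 31.1% in B23-treated cells, against 20.3%, 20.2% and 17.2% in DMSO cells. FOSL1 made up 18.7% ± 1.19 in B23 and 32.3% ± 3.97 in DMSO (SD, n = 3), and neither gene's shares overlapped between the groups (exact permutation p = 0.1 each, two-sided). FOSL2 was the leading member throughout, with 51.3% ± 1.12 in B23 and 48.4% ± 5.73 in DMSO (SD, n = 3). Its shares overlapped (exact permutation p = 0.4, two-sided), since DMSO replicate 3, at 55.0%, lay above all B23 libraries and the other DMSO libraries lay below them. The smallest p that this test can give here is 0.1, so no share could pass the threshold, and only overlap is described.

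ATF3 is a stress-induced factor of the ATF group that pairs with JUN proteins and also represses as a pair of its own. It lies on chromosome 1 from 212565334 to 212620777. Its level was 489.8, 475.7 and 503.6 CPM in B23-treated cells and 96.8, 93.5 and 92.7 CPM in DMSO cells. With a log2 difference of 2.37 (SE 0.034, limma adjusted p = 1.18e-25) and a rise of 5.19-fold, it became the highest of the 10 genes per length in B23, at 121.2 ± 3.45 CPM per kb (SD, n = 3). In DMSO cells it came after JUN and JUND, at 23.3 ± 0.542 CPM per kb, with JUN at 114.5 ± 1.78 CPM per kb (SD, n = 3). The order per length in B23 was ATF3, JUND, JUN, MAFG, MAFK, JUNB, FOSL2, MAFF, FOS and FOSL1, and in DMSO it was JUN, JUND, ATF3, JUNB, MAFG, MAFK, FOSL2, FOSL1, FOS and MAFF. Neighbours in either order did not overlap over the 3 libraries, though the closest, such as MAFG and MAFK in B23 at 22.98 ± 0.845 and 21.2 ± 0.658 CPM per kb (SD, n = 3), rest on the exon lengths of the annotation.

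The small MAF genes all rose. MAFF, on chromosome 22 from 38200767 to 38216511, was at 41.8, 39.4 and 40.6 CPM in B23-treated cells, against 0.902, 1.23 and 1.22 CPM in DMSO cells. In reads this was 1810 to 2123 per B23 library and 57 to 77 per DMSO library. Mean CPM was 36.2-fold higher in B23, the log2 difference was 4.67 (SE 0.077, limma adjusted p = 1.89e-24), and 4 of the tested genes had a larger rise. Because MAFF was so low in DMSO, the log2 difference ran from 3.77 with a pseudocount of 2 to 5.18 among the 18 settings. PLA2G6 overlaps MAFF on the opposite strand without shared exon bases, and it fell, at 12.4 ± 0.938 CPM in B23 and 17.4 ± 1.65 CPM in DMSO (SD, n = 3; limma adjusted p = 6.06e-07).

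MAFK, the small MAF gene on chromosome 7 from 1530714 to 1543043, was at 96.5, 95.7 and 91.1 CPM in B23-treated cells and 18.5, 17.0 and 18.2 CPM in DMSO cells. The B23 libraries were 5.28-fold higher by mean CPM, 2.37 on the log2 scale (SE 0.042, limma adjusted p = 5.45e-24). MAFG, on chromosome 17 from 81918270 to 81927714, was at 120.9, 123.8 and 115.2 CPM in B23-treated cells against 29.2, 29.5 and 30.6 CPM in DMSO cells. Here too the groups were apart, 4.03-fold and 1.99 on the log2 scale (SE 0.038, limma adjusted p = 2.04e-23). MAFG shares 105 exon bases with SIRT7 on the same strand, whose mean over all libraries was 36.2% of that of MAFG and which rose 1.21-fold, to 29.7 ± 0.295 CPM in B23 against 24.5 ± 1.33 CPM in DMSO (SD, n = 3; limma adjusted p = 6.66e-06). The non-coding gene MAFG-DT, named as a divergent transcript of MAFG, fell to 1.06 ± 0.181 CPM in B23, against 2.84 ± 0.270 CPM in DMSO (SD, n = 3; limma adjusted p = 7.43e-10).

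Summed per length, the small MAF genes reached 51.4 ± 1.45 CPM per kb in B23 and 9.92 ± 0.244 CPM per kb in DMSO (SD, n = 3), 5.18-fold higher in B23. MAFF made up 14.2%, 13.4% and 14.5% of the sum in B23-treated cells, against 1.62%, 2.27% and 2.14% in DMSO cells. The share of MAFG was 44.7% ± 0.634 in B23 and 57.5% ± 0.980 in DMSO, while that of MAFK was 41.2% ± 0.189 in B23 and 40.5% ± 1.32 in DMSO (SD, n = 3). The shares of MAFF and MAFG did not overlap between groups (exact permutation p = 0.1 each, two-sided), and those of MAFK did (exact permutation p = 0.4, two-sided). Per length, MAFF held the eighth place of the 10 genes in B23 and the lowest in DMSO.

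AP-1 and ATF pairs are known, as background, to act on genes of their own group, and the promoters of the 10 genes were therefore searched for their sites. Neither binding nor promoter activity was measured, and any part of these sites in the differences was not tested. Windows of 250 bases before to 50 bases after the annotated start were taken from RefSeq (GRCh38.p14, the same coordinates as hg38) for 8 of the 10 genes, with a pair of starts for ATF3 and for MAFF. FOSL1 and MAFK had no entry. Both strands were searched for the AP-1 site TGACTCA, the CRE TGACGTCA, the variant TGACATCA and the CRE half-site TGACG, which also lies within the CRE. The windows shown hold an 8-letter element, in capitals, and cover 3 genes that rose and the 1 that fell.
MAFF, chr22:38201744-38202043, plus strand: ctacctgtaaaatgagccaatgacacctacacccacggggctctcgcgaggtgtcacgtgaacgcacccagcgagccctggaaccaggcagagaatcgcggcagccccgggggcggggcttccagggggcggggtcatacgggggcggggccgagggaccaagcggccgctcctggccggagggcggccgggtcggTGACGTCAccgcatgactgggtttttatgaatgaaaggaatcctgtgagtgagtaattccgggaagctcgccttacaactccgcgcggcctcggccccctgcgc
JUND, chr19:18281573-18281872, minus strand: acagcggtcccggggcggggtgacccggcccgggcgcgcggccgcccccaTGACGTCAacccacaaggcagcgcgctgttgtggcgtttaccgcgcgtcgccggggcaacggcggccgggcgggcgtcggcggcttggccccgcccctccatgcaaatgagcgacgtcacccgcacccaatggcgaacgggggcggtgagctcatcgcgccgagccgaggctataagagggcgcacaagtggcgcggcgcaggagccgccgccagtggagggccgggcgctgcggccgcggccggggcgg
ATF3, chr1:212565157-212565456, plus strand: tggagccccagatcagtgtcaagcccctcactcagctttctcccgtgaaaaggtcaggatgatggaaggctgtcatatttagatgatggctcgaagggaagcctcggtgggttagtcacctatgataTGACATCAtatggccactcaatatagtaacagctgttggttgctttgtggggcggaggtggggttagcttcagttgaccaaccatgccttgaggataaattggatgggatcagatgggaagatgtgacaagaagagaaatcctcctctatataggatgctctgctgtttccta
JUN, chr1:58783998-58784297, minus strand: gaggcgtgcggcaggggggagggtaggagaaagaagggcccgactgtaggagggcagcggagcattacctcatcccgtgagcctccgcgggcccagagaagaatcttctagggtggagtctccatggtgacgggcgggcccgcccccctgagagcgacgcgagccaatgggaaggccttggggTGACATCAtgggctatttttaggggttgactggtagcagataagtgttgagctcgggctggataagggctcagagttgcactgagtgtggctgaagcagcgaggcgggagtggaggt

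The CRE was present in 2 of the 8 genes, MAFF and JUND, and in 1.85% of the 35116 promoter windows of that table. Counts for the 8 genes are per gene over 10 windows, whereas the shares of all windows are per window and not matched for GC content. The 2 are therefore not directly comparable. TGACATCA was present in ATF3 and JUN, also 2 of 8, and in 2.61% of all windows. FOSL2 alone held TGACTCA, found in 4.95% of all windows. The half-site was in 7 of the 8 genes and in 24.6% of all windows. It was in neither window of ATF3, and sequence outside the windows was not searched. A CArG box, the serum response element core, was in 0 of the 8 genes within these windows and in 1.29% of all windows. The windows reached no further than 250 bases before the start, so a CArG box further upstream, in FOS or another gene, could not be counted. An NF-κB site was in the second window of MAFF only and in 11.3% of all windows. Counted from the start, the CRE of MAFF began at base -54 and the variant of JUN at base -67. In ATF3 the variant was in the first window only, and which start of ATF3 was in use was not measured.

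Short-lived RNAs of this group are known for AU-rich elements in the 3′ untranslated region, whose core is ATTTA. In GENCODE release 29, with the transcript of longest coding sequence for each gene, the 7-letter form TATTTAT was found in 9 of the 10 genes, with JUNB as the exception. It was found in 31.7% of 12997 tested coding genes, and in 39.1% of the 7945 with an untranslated region as long as those of the 10 genes, 500 to 4864 bases. The stretches shown are the densest 30 bases of the gene with the largest rise, of FOS, whose element is the textbook case, and of the gene that fell, with ATTTA in capitals.
MAFF: cggctcctagaATTTATTTAtttcctgact
FOS: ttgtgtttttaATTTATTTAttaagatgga
JUN: tttgcttatgaatATTTAtaacagcattct

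In MAFF and FOS a pair of cores overlapped, and the stretch of JUN held 1. JUN carried TATTTAT as did 8 of the 9 genes that rose. RNA stability was not measured.

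Of all tested genes 39.6% were called higher and 49% lower, and none of the gene lists described from here on was tested against these shares. Other leucine zipper genes that pair with the 10 were mixed. Of 8 listed AP-1 and ATF-type partners 6 were tested, of which 4 rose and 2 fell, with a median log2 difference of 0.97. CREB5, an ATF2-related factor, rose 6.25-fold to 252.8 ± 2.68 CPM in B23, against 40.5 ± 0.988 CPM in DMSO (SD, n = 3; limma adjusted p = 1.30e-26). FOSB, the remaining FOS gene, rose 1.85-fold to 5.35 ± 0.351 CPM in B23 against 2.90 ± 0.246 CPM in DMSO (SD, n = 3; limma adjusted p = 4.67e-09). ATF2 rose 2.24-fold, while JDP2, a repressor that pairs with JUN, was 1.81-fold lower and BATF3 1.59-fold lower in B23. BATF3 did not pass the test after quantile normalization (adjusted p = 0.354).

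CNC, BACH and large MAF genes encode the partners and relatives of the small MAF factors. Of the 8 tested out of 10, 4 were called higher, 3 lower and 1 neither (median log2 difference 0.087). NFE2L3, a CNC factor gene that overlaps HNRNPA2B1 on the opposite strand, fell to 5.20 ± 0.418 CPM in B23, against 44.8 ± 1.58 CPM in DMSO (SD, n = 3; limma adjusted p = 2.38e-23), 8.61-fold lower. NFE2L2, which encodes NRF2 and overlaps AGPS on the opposite strand, rose 1.85-fold to 84.6 ± 1.92 CPM in B23, against 45.7 ± 0.724 CPM in DMSO (SD, n = 3; limma adjusted p = 3.56e-17). BACH2 rose 1.22-fold and did not pass the test with listed-gene total scaling (adjusted p = 0.418).

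Upstream of AP-1, MAP kinases phosphorylate JUN, ATF2 and the factors on the FOS promoter. Among 17 MAP kinase and MAP2 kinase genes, 9 were called higher, 6 lower and 2 neither (median log2 difference 0.17). MAP2K1, the MEK1 gene, rose 2.78-fold to 134.1 ± 2.82 CPM in B23 against 48.2 ± 0.627 CPM in DMSO (SD, n = 3; limma adjusted p = 7.89e-22). MAP2K6, an activator of p38, fell to 1.55 ± 0.285 CPM in B23 against 10.5 ± 0.801 CPM in DMSO (SD, n = 3), 6.81-fold lower. MAPK10, a JNK gene, was 2.77-fold lower at 1.06 ± 0.0711 CPM in B23, and it overlaps ARHGAP24 and the far more abundant PTPN13. MAP2K1 overlaps SNAPC5 on the opposite strand.

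Of 7 genes for SRF, its cofactors and STAT3, which act on the FOS promoter, 5 rose and 2 fell (median 0.33). MRTFA, which overlaps SGSM3, and ELK4 rose 1.91-fold and 1.90-fold, while ELK3 was 2.05-fold and MRTFB 1.24-fold lower in B23. Of 4 ubiquitin ligase genes whose products act on JUN, ITCH rose 2.65-fold to 199.97 ± 3.64 CPM in B23 against 75.3 ± 1.19 CPM in DMSO, and FBXW7 rose 1.60-fold (SD, n = 3; limma adjusted p = 8.30e-22 and 9.07e-13). DET1, which overlaps AC013489.1, was 2.00-fold lower. COP1 was 1.09-fold lower and did not pass the test with TMM or median-of-ratios scaling (adjusted p = 0.297 and 0.746).

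Textbook AP-1 target genes were expressed in part: 20 of 28 were listed, and the mean of 14 reached 1 CPM. Of these 14, 8 rose and 6 fell (median 0.42). CXCL8, a chemokine gene that is also an NF-κB target, was at 42.5 ± 0.476 CPM in B23 and 0.875 ± 0.183 CPM in DMSO, and LAMB3, a laminin chain gene, at 14.2 ± 1.06 CPM in B23 and 1.94 ± 0.235 CPM in DMSO (SD, n = 3), 7.29-fold higher in B23 (limma adjusted p = 2.56e-19). The cyclin D1 gene CCND1, which overlaps LTO1 on the opposite strand, was 1.27-fold lower. The collagenase gene MMP1 was not tested, at 0.0831 ± 0.0453 CPM in B23 and 0.0646 ± 0.0335 CPM in DMSO (SD, n = 3).

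Antioxidant response element genes, where CNC and small MAF pairs bind, did not move in 1 direction. Among the 20 tested of 22, 9 were called higher, 6 lower and 5 neither (median log2 difference 0.0044), and the split turned with the scaling: 12 were higher and 4 lower with median-of-ratios scaling, 11 and 5 with TMM, 5 and 12 with quantile normalization, and 5 and 11 with listed-gene total scaling. SQSTM1, the autophagy receptor gene, which overlaps MGAT4B on the opposite strand, rose 9.94-fold to 754.0 ± 16.6 CPM in B23 against 75.8 ± 5.23 CPM in DMSO (SD, n = 3; limma adjusted p = 1.68e-25). OSGIN1, which overlaps AC009119.2, rose 5.06-fold, to 2.19 ± 0.0166 CPM in B23 against 0.433 ± 0.0413 CPM in DMSO (SD, n = 3). HMOX1, the heme oxygenase gene, fell 3.55-fold to 3.54 ± 0.228 CPM in B23 against 12.6 ± 0.105 CPM in DMSO, and the cystine transporter gene SLC7A11 fell 2.37-fold (SD, n = 3; limma adjusted p = 3.57e-17 and 3.35e-20).

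**Figure D4:**
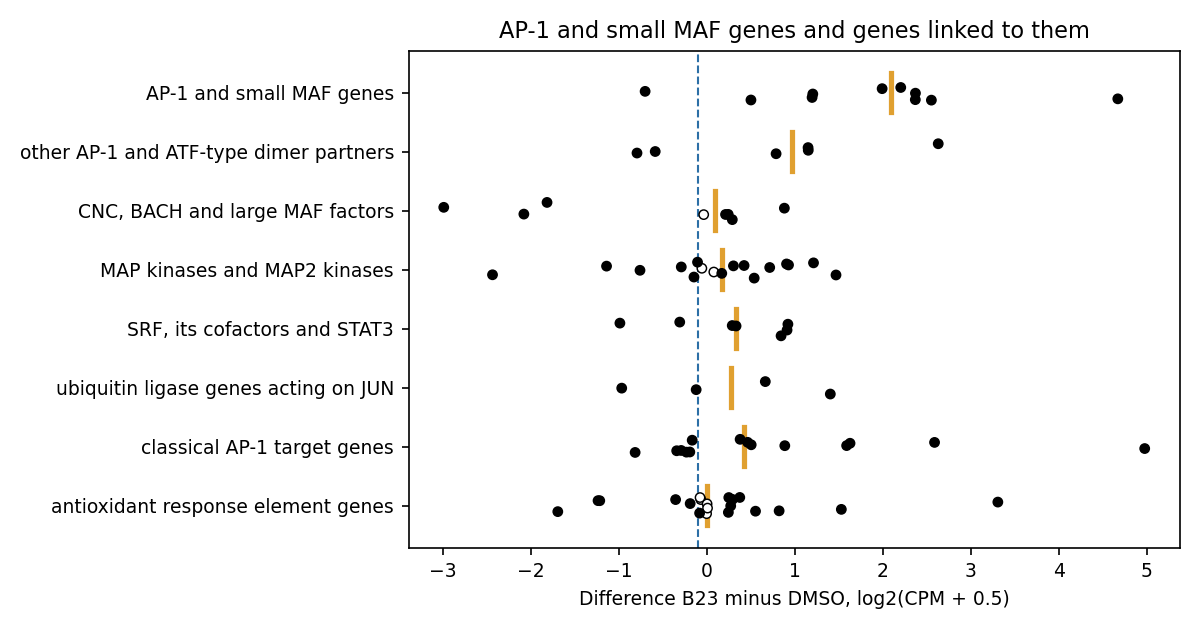
Difference B23 minus DMSO on the log2(CPM + 0.5) scale for the tested genes of each list, with filled points for genes that passed the limma test, open points for those that did not, an orange bar at the list's median and a dashed line at -0.10, the median of all tested genes. The 10 AP-1 and small MAF genes have a median of 2.10, and the medians of the other lists run from 0.0044 to 0.97.

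The genes whose values over the 6 libraries were nearest to those of MAFF were DNAH17, SH2D3C and TNFAIP3, with root mean square distances of 0.086, 0.118 and 0.141 between centred log2(CPM + 0.5) values, among 12060 other genes that averaged 5 CPM or more. DNAH17 overlaps PGS1 on the opposite strand. Nearest to JUN were DAPK1, UQCC3 and CIAO1, at 0.014, 0.018 and 0.018, of which UQCC3 overlaps LBHD1 and DAPK1 overlaps AL161787.1. With 2 groups of 3 libraries, nearness reflects mainly the size of the difference between groups.

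The libraries held 40950318 to 47444126 reads in listed genes, and 1 read was worth 0.0158 to 0.0217 CPM. In each library the neurofilament genes NEFM and NEFL and the gene LIN28B, known from this line, were expressed. NEFM was at 66.3 CPM in B23 and 106.6 CPM in DMSO on average, and NEFL at 75.2 and 133.1 CPM, both called lower in B23. LIN28B was called higher, at 134.8 CPM in B23 and 106.1 CPM in DMSO. For 9 markers of leukocytes, endothelium, hepatocytes, podocytes and kidney tubule no level was analysed here, since their symbols did not match a row. Scaling shifts the background: of the called genes, 55.3% were lower on the deposited scale and 67.5% with listed-gene total scaling, where the median of all genes moved to -0.34, and it was 0.0015 with median-of-ratios scaling.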

How the data were processed

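RNA of 3 B23-treated and 3 DMSO-treated HEK293 libraries was made into strand-preserving mRNA libraries, per the labels' protocols. The submitters' processing notes name hg38, HTSeq, edgeR, SAMtools and STAR 2.6.1d, without roles. For the annotation, strand setting and gene filter the sources used here say nothing. The authors deposited CPM per gene symbol; the listed values add up to 890367 to 900113 CPM per B23 library and 745216 to 753745 per DMSO library, and whether the rest reflects a scaling factor or reads of genes outside the table cannot be told apart.

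Values were whole multiples of 1 read (100% within 0.001 reads), and reads were recovered. The 14792 genes averaging 1 CPM or more were tested as log2(CPM + 0.5) with limma 3.58.1 in R 4.3.3, trend and robust empirical Bayes, two-sided, Benjamini-Hochberg adjusted over all, threshold 0.05. This scale understates changes of low genes; folds are ratios of mean CPM. SE is from limma. Replicate pairs differed beyond sampling noise (chi-square per degree of freedom 2.64 to 6.87). Positions, exons and overlaps came from GENCODE release 29, which matched all 15496 symbols; overlapping genes are given from 10% of the described gene's mean upwards. Genes named are the 10, the 2 largest called rises and falls of each list, and the 3 nearest profiles, except some list genes that are not reported here; FOSB, MMP1, HOOK2, PLA2G6, SIRT7 and MAFG-DT were added after their values were seen. The members, lists, motifs and tests were chosen with earlier results of these data known. Other settings tried were 4 scalings, pseudocounts of 0.1 and 2, a filter at 5 CPM and none, plain empirical Bayes, replicate as a block, edgeR 4.0.16 and DESeq2 1.42.0 on recovered reads, and each library left out.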

Additional observations from a re-analysis of the deposited data

How the results depend on the processing

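All 10 genes kept their direction and call in each of 18 alternatives in which they were tested, except that FOSL1 was left out by the filter at 5 CPM, and all-gene counts stayed within 1.5 times (13136 called by edgeR and 12899 by DESeq2 on the recovered reads). For partner lists, 1 AP-1 or ATF-type partner instead of 2 fell after quantile normalization or a 5 CPM minimum; 5 CNC, BACH or large MAF genes instead of 3 fell with quantile normalization, and 1 instead of 4 rose with listed-gene total scaling, where 3 instead of 5 of the SRF list rose. Of the ligase genes 1 instead of 2 fell with median-of-ratios and TMM scaling, and 1 to 2 with a library left out (1 without B23 replicate 1). Of the AP-1 targets 3 instead of 6 fell with median-of-ratios scaling and with quantile normalization. Of the antioxidant genes 5 instead of 9 rose with quantile normalization and with listed-gene total scaling, where 12 and 11 instead of 6 fell. Without division by length JUN and not JUND led the JUN family in B23, and the shares, as B23 minus DMSO in percentage points, were 6.11 for FOS (10.8 with it), -6.01 for FOSL1 (-13.6), -0.11 for FOSL2 (2.87), -25.1 for JUN (-29.8), 23.2 for JUND (28.0), 13.6 for MAFF (12.1) and -14.0 for MAFG (-12.8). Added after seeing the data, the log2 ratio of the JUN family sum was -0.33 with quantile normalization and -0.18 with listed-gene total scaling, against 0.077. It was 0.19 with median-of-ratios scaling and 0.15 with TMM scaling. The cause of these moves was not tested beyond the setting changed. Same-numbered libraries did not deviate together (residual correlations of 0.026, -0.070 and -0.062, up to 0.157 for other pairs), so no pairing by replicate number was seen. With 3 libraries per group, these correlations cannot exclude a shared batch. With a replicate block 13106 genes were called, against 13111, and 9 of the 10 rose and 1 fell. Depth limits MAFF, FOS and FOSL1 in DMSO, with 57 to 153 reads per library.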
